A study of Rattus norvegicus with 6 samples.

Results

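Of the 758 miRNAs on the array, 5 of the miR-15/16 family were taken as members, namely rno-miR-195-5p, rno-miR-497-5p, rno-miR-15b-5p, rno-miR-16-5p and rno-miR-322-5p, where rno stands for rat. They were chosen by name, whatever their signal, and miR-195-5p and miR-497-5p were set against the other 3. All 5 were detected on all 6 arrays. The RNA came from the myocardium of male Sprague–Dawley rats 4 weeks after surgery, and each array held 1 rat. Rats of the model group (n = 3) had a ligated left anterior descending coronary artery, and their tissue was labelled as the marginal zone of the infarct. In the sham-operated control group (n = 3) a thread was passed but not tied, and the labels give no zone. The effect of the infarct and of the zone sampled therefore cannot be told apart. All rats were operated on, and their age is not stated in the sources used here. The 3 samples of each group were drawn at random from a larger group of rats.

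A miRNA guides a silencing complex to messenger RNAs, chiefly by pairing of its seed, the bases from 2 to 8 at its 5′ end. Members of this family share their seed, and their known targets include cyclins, cyclin-dependent kinases and the checkpoint kinase Chek1. In the heart the family is known as a brake on the cell cycle, and miR-195 is known to increase in the mouse heart around birth, when cardiomyocytes stop dividing. The members are made from separate transcripts: miR-195 and miR-497 from one cluster, miR-15b and miR-16 from an intron of Smc4, a condensin gene, and miR-322, which is called miR-424 in humans, from a cluster with miR-503.

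The mature sequences are shown because the seed they share is what makes them a family, while the bases after it set the members apart. They are written 5′ to 3′ from the RefSeq table of the assembly GRCr8, which held all 5, with the seed in capitals.
miR-195-5p, chr10:55450509-55450529, plus strand: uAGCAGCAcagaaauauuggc
miR-497-5p, chr10:55450172-55450193, plus strand: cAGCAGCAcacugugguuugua
miR-15b-5p, chr2:155555197-155555218, plus strand: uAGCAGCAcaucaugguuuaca
miR-16-5p, chr2:155555343-155555364, plus strand: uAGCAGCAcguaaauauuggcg
miR-322-5p, chrX:137726198-137726219, minus strand: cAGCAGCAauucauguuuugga
The seed was the same in 5 of the 5 members, and 5 of the 693 mature miRNAs in the table carried it. This count does not cover miR-15a-5p. After the seed, miR-195-5p and miR-16-5p, which lie on different chromosomes, were the most alike, with 11 of 13 positions in common, and how far the probes tell them apart was not tested. MiR-195-5p and miR-497-5p, whose genes lie 255 bases apart with 0 genes between them, shared 5 of 13. MiR-497-5p and miR-15b-5p shared 9 of 14. Both hairpins of this cluster, Mir195 and Mir497, are given for the position of the mature strand, in capitals, in its precursor.
Mir195, chr10:55450495-55450581, plus strand: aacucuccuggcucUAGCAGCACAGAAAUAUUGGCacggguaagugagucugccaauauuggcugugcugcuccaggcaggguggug
Mir497, chr10:55450171-55450239, plus strand: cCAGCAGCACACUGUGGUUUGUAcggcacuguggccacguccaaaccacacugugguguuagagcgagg

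Signals were measured on single-colour Agilent arrays, on which RNA carrying the dye Cy3 binds to spotted probes. A probe was taken as detected when its signal was over 3 times its error, and the signal of a miRNA was the sum of its detected probes, in fluorescence units with background subtracted. To make the arrays comparable, signals were set relative to a 75th percentile, that of the 198 miRNAs found on every array, and log2 was taken, which is called scaled log2 signal from here on. Between 206 and 222 miRNAs were detected per array. Of the 214 miRNAs tested with limma, 22.9% had an adjusted p under 0.05 in model against control, 10.3% higher and 12.6% lower in the model group. The scaled log2 signal of these 198 had a median difference of -0.15 between the groups, and the split of the calls depended on the processing. It was 22 higher and 27 lower as reported, 19 and 47 when scaled to all miRNAs, 19 and 0 in limma without scaling (4 lower unadjusted), and 35 and 1 with the totals as deposited. In simulated data, 30.1% of the calls made with the scaling used here were false, against 5.3% with arrays centred on their median deviation. The calls below carry this limit. All 6 arrays shared 1 slide and 1 scan time. Row 1 of the slide held the control arrays and model array 1, and row 2 the other 2 model arrays.

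The family did not move as one. MiR-497-5p rose in the model group, miR-322-5p fell, and miR-15b-5p and miR-16-5p did not pass the test. MiR-195-5p lay higher on all model arrays than on all control arrays but missed the threshold (adjusted p = 0.0626, limma). Thus 2 of 5 members passed, against 22.9% of all miRNAs tested. With arrays centred on their median deviation 3 members passed, miR-195-5p among them, with 30 of the 214 miRNAs higher and 16 lower. For 3 of the 5, the groups did not overlap, against 47.2% of all miRNAs tested (16.4% with the model arrays above and 30.8% below). The median log2 fold change of the 5 members was 0.19, against -0.14 over the 214 miRNAs tested. In bulk tissue, fewer cells of a type and less RNA per cell cannot be told apart.

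MiR-497-5p is co-transcribed with miR-195 and carries the same seed. Control arrays read 257, 319 and 206 fluorescence units, and model arrays read 482, 602 and 390. Every model array lay above every control array, also before any scaling. Unscaled signals as a whole were somewhat higher in the model group, with a median log2 difference of 0.09 over miRNAs found on every array. Before scaling, the groups did not overlap for miR-15b-5p either. Scaled log2 signals averaged 0.69 ± 0.17 (SD, n = 3) in control rats and 1.37 ± 0.24 (SD, n = 3) in model rats. The difference, a log2 fold change of 0.67 with a standard error of 0.15 (adjusted p = 0.0296, limma), equals a fold change of 1.60 with a 95% confidence interval of 1.23 to 2.08. Taken from the median miRNA of the 198 found on every array, it was 0.82. The call did not hold without control array 1, 2 or 3 or model array 1 or 2, one at a time (adjusted p 0.0566 to 0.0768), while the log2 fold change stayed between 0.53 and 0.74 with each of the 6 arrays left out. The call was also lost with slide row as a block (adjusted p = 0.177), where the value rests on model array 1, in the same row as the control arrays and 0.55 above their mean. It held with arrays centred on their median deviation (0.80, adjusted p = 0.0148).

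MiR-195-5p, the member best known for holding cardiomyocytes out of mitosis, read 406, 549 and 348 on control arrays against 698, 897 and 592 on model arrays. Again the groups did not overlap, and the model arrays were the higher ones, both in these signals and after scaling. Scaled log2 signals averaged 1.43 ± 0.15 (SD, n = 3) in control rats and 1.94 ± 0.24 (SD, n = 3) in model rats. The log2 fold change was 0.51 (standard error 0.15), a fold change of 1.42 with a 95% interval of 1.10 to 1.84, and missed the threshold after adjustment (adjusted p = 0.0626, limma). Over the alternatives, the adjusted p ran from 7.4e-06 with normexp background correction to 0.400 without a detection filter. It was 0.0276 with arrays centred on the median deviation of the miRNAs found on every array. Quantile normalization lowered the log2 fold change to 0.23 (adjusted p = 0.350), and slide row as a block to 0.35 (adjusted p = 0.303).

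MiR-322-5p, the X-linked member, went the other way. Control arrays read 256, 322.5 and 228 and model arrays 252, 237 and 205, so that the unscaled signals overlapped. After scaling, the 3 model arrays lay within a narrow band, at 0.31, 0.30 and 0.29, below the control arrays at 0.82, 0.77 and 0.65. The log2 fold change of -0.45 had a standard error of 0.08 (adjusted p = 0.0132, limma) and equals a fold of 0.733 with a 95% interval of 0.644 to 0.835. Taken from the median miRNA of the 198, it was -0.30. The call was lost without control array 1 (adjusted p = 0.0922) and without scaling, where the log2 fold change was -0.21 (adjusted p = 0.673), and with the totals as deposited, where it was -0.11. It was also lost with slide row as a block (-0.43, adjusted p = 0.0608) and with no detection filter (adjusted p = 0.0590), and it held with arrays centred on their median deviation (-0.32, adjusted p = 0.0389).

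MiR-15b-5p and miR-16-5p share an intron of Smc4 and lie 51 bases apart. MiR-15b-5p read 158, 192 and 137 on control arrays against 204, 257 and 192 on model arrays. After scaling the groups overlapped, and the log2 fold change was 0.19 (standard error 0.13, 95% interval -0.12 to 0.50, adjusted p = 0.300, limma). MiR-16-5p, which is often used as a reference miRNA, read 711, 954 and 645 on control arrays against 910, 1072 and 857 on model arrays. Its groups overlapped too, and the log2 fold change was 0.07 (standard error 0.11, 95% interval -0.20 to 0.34, adjusted p = 0.660). The sign of both turned when slide row was blocked, to -0.0079 and -0.096, and that of miR-16-5p also when scaled to all miRNAs (-0.056) and without control array 3 or model array 2.

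**Figure D1:**
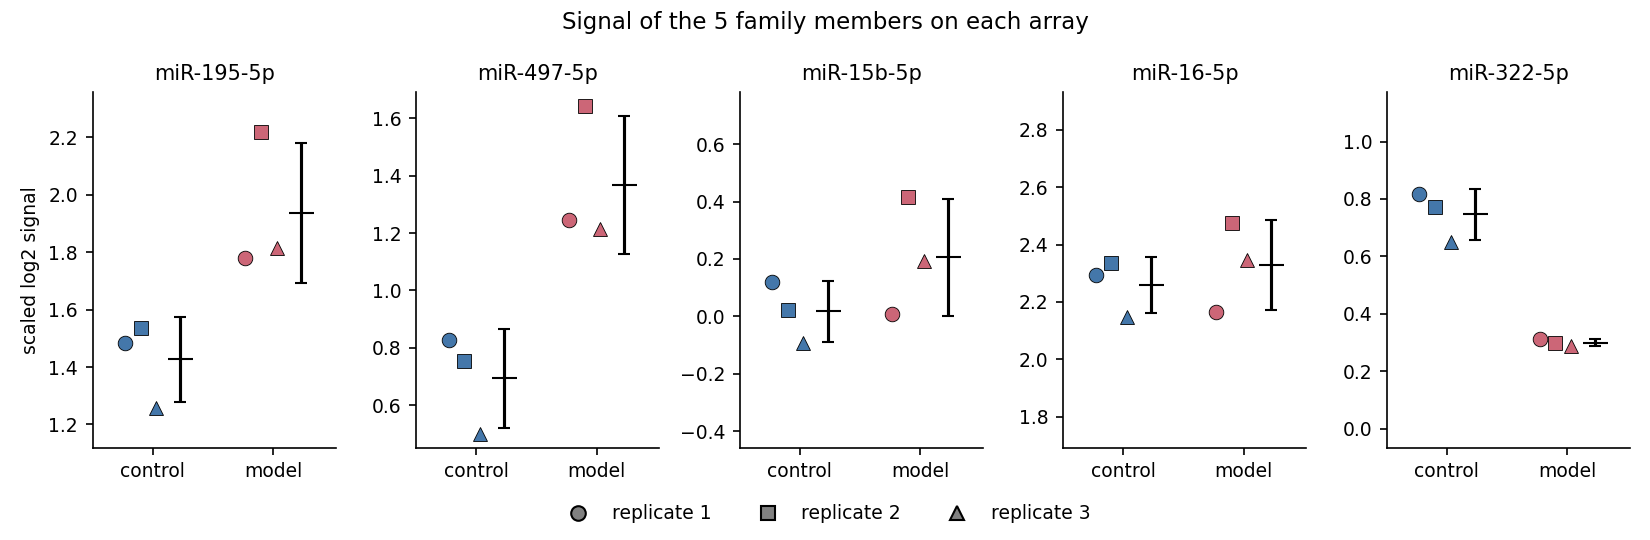
Scaled log2 signal of the 5 members on each of the 6 arrays. Points are arrays with the symbol giving the replicate number, bars are the mean ± SD (n = 3), and the y axes span the same range in each panel but start at different levels. The model arrays lie above the control arrays for miR-195-5p and miR-497-5p and below them for miR-322-5p, and overlap them for miR-15b-5p and miR-16-5p.

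The pair of miR-195-5p and miR-497-5p was compared with the other members within each array, since dividing an array by one factor leaves such a ratio as it is. Normalization that acts on ranks, such as quantile normalization, does change it. In 6 of 6 ratios (miR-195-5p or miR-497-5p over each of the 3 others), all model arrays were above all control arrays. Such a separation was not particular to these ratios. The groups were also apart for miR-195-5p over miR-497-5p (by 0.06) and miR-15b-5p over miR-16-5p (0.02). For miR-322-5p they were apart over miR-16-5p (0.29) and over miR-15b-5p (0.40). The share among ratios of all miRNAs was not computed, while for single miRNAs the groups did not overlap in 47.2%. The 6 ratios share members, and miR-195-5p and miR-497-5p correlated at 0.99 over the 6 arrays. They are therefore not 6 separate observations. Only the difference of a ratio between the groups was read, since its level depends on the probes. The log2 ratio of miR-195-5p to miR-16-5p was -0.81, -0.80 and -0.89 in control rats against -0.38, -0.26 and -0.53 in model rats. The means differed by 0.44, which is 1.36-fold. The log2 ratio of miR-497-5p to miR-16-5p was -1.47, -1.58 and -1.65 in control rats against -0.92, -0.83 and -1.13 in model rats, a difference of 0.60 or 1.52-fold. Against miR-15b-5p, the difference between the groups was 0.32 for miR-195-5p and 0.49 for miR-497-5p. The smallest of these steps, that of miR-195-5p over miR-15b-5p, was 1.25-fold, and its groups were 0.11 apart at their nearest arrays. This ratio turned to -0.12 with quantile normalization and to -0.09 in the authors' normalized values, in which 4 of the 6 ratios still had all model arrays above all control arrays. The ratio of miR-195-5p to miR-16-5p differed by 0.16 and 0.19 in these settings.

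Against miR-322-5p the ratios differed most, by 0.96 for miR-195-5p and 1.12 for miR-497-5p, or 1.94-fold and 2.18-fold. For each of the 6 ratios the exact permutation test of 3 arrays against 3, two-sided, gave p = 0.10, and 0.10 after Benjamini-Hochberg adjustment over the 6, which is the smallest p that this design allows. The mean of the pair minus the mean of the other 3 was 0.08, 0.10 and -0.02 in control rats against 0.69, 0.87 and 0.57 in model rats. The groups differed by 0.66, by 0.37 with quantile normalization and by 0.42 in the authors' normalized values. Model array 1, alone in the row of the control arrays, lay 0.63 above the control mean. With each array scaled to its own miR-16-5p signal, a choice made after seeing the data, limma gave an adjusted p of 0.0319 for miR-195-5p, 0.0174 for miR-497-5p and 0.0266 for miR-322-5p.

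**Figure D2:**
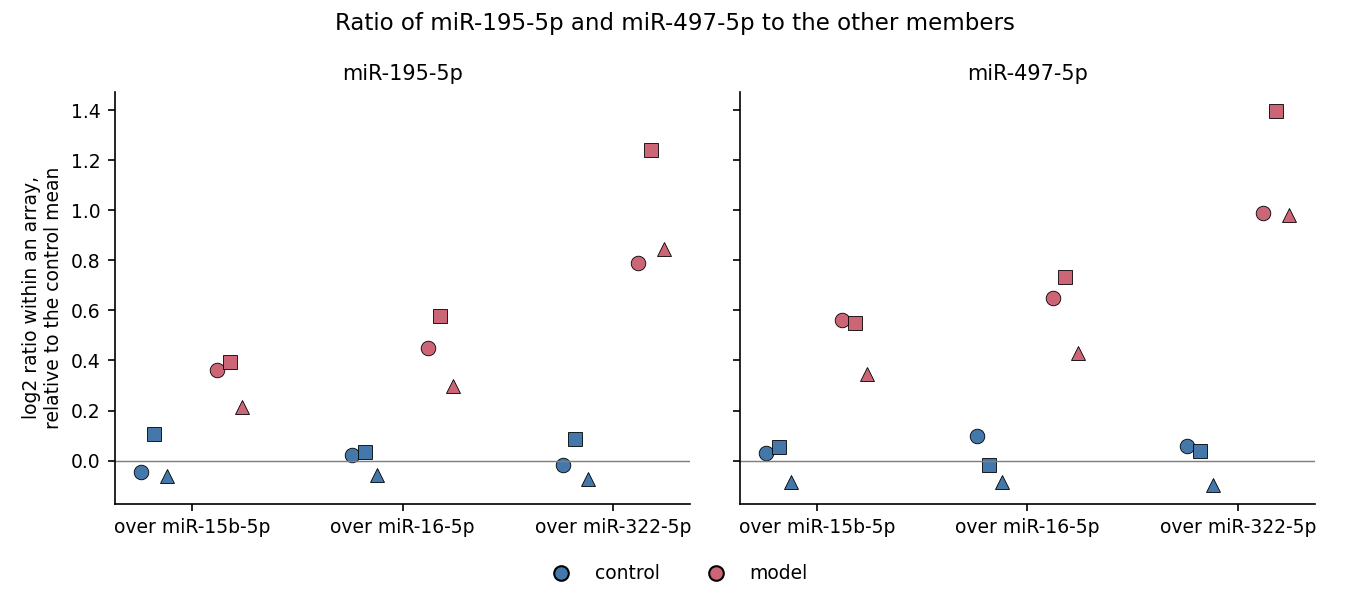
Log2 ratio of miR-195-5p (left) and miR-497-5p (right) to each of the other 3 members within an array, relative to the mean of the control arrays. Points are arrays, blue for control and red for model, with the symbols of the replicates as circle, square and triangle for 1, 2 and 3. All model arrays lie above all control arrays in each of the 6 ratios, and the gap is widest over miR-322-5p.

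Among all 10 pairs of members, those from the same cluster differed least in their log2 fold change, as reported and in 19 of 21 other settings. Many of these settings cannot change such a difference, as they alter only the test, the filter, the floor or one factor per array. The count is therefore no measure of support. The exceptions were quantile normalization and the authors' values. There, pairs from the same cluster differed by up to 0.37 and 0.42 and other pairs by as little as 0.12 and 0.09. MiR-195-5p and miR-497-5p differed by 0.16 and miR-15b-5p and miR-16-5p by 0.12, while the 8 pairs from different chromosomes differed by 0.32 to 1.12. The pair most alike in sequence, miR-195-5p and miR-16-5p, differed by 0.44. The log2 ratio of miR-195-5p to miR-497-5p was 0.66, 0.78 and 0.76 in control rats against 0.53, 0.58 and 0.60 in model rats. The groups of this ratio did not overlap, at a distance of 0.06. These comparisons were not tested.

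Each member was measured by 2 probes with 8 spots each. All 60 probe readings of the family were detected, and none of the 480 spots was saturated. Signals were 9.71 to 10 times their error, which was nearly a fixed share of the signal. For example, it was 3.82 at a signal of 37.1 (miR-15b-5p, control array 3) and 89.0 at 890 (miR-16-5p, model array 2). This range is therefore no measure of precision. The software's errors for a member's 2 probes, combined as the root of their summed squares, came to 7.51% to 8.48% of its signal. This takes the 2 errors as independent. The spots of a probe had a median coefficient of variation of 2.52% after 57 flagged spots were left out. Both probes of each member gave nearly the same log2 fold change. For miR-497-5p the dimmer probe gave 0.71 and the brighter one 0.66, and for miR-195-5p they gave 0.53 and 0.51. For miR-322-5p they gave -0.48 and -0.43. Over the 5 members, the probes differed by at most 0.05.

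**Figure D3:**
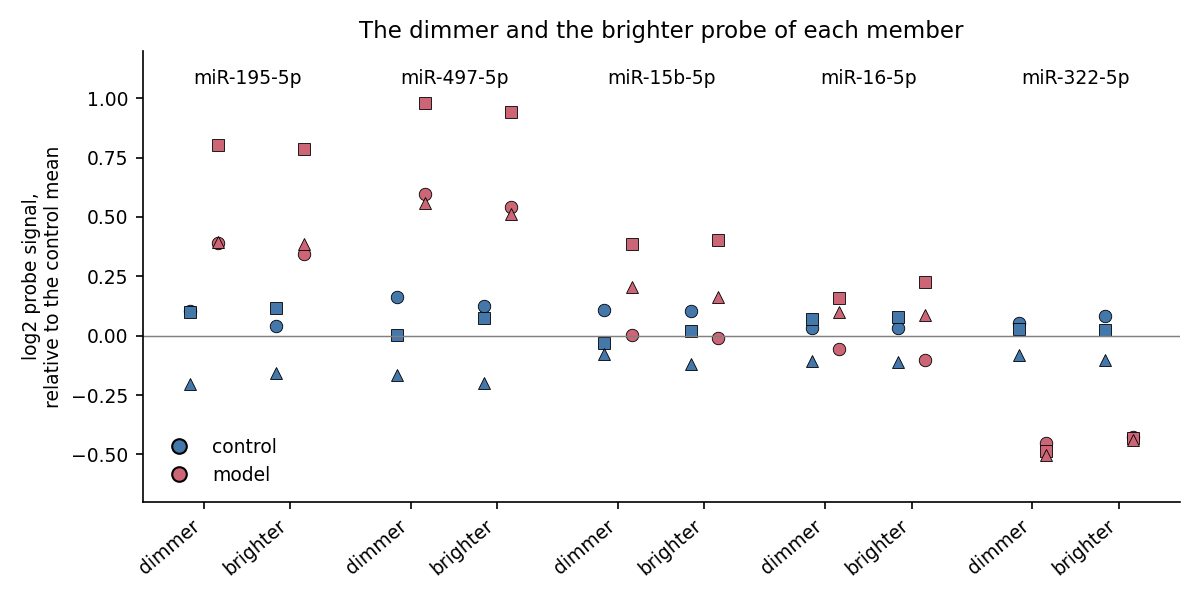
Log2 signal of the dimmer and the brighter probe of each member after scaling of the arrays, relative to the mean of the control arrays for that probe. Points are arrays, blue for control and red for model, with the replicates as circle, square and triangle. Each member's 2 probes show the same arrangement of arrays, and their log2 fold changes differ by at most 0.05.

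The strands made from the same precursors were mostly out of reach. MiR-15b-3p, miR-16-3p, miR-195-3p and miR-497-3p were detected on no array. MiR-322-3p was detected on all 6, with signals of 10.6 to 12.8 in control rats and 10.5 to 13.4 in model rats. These unscaled signals overlapped. After scaling its model arrays lay below the control arrays, and its log2 fold change was -0.24 (adjusted p = 0.128, limma).

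The cluster of miR-322 holds further miRNAs, of which miR-503-5p differs from the family by 1 base of the seed. Of the 8 miRNAs of this cluster in the list, 3 passed the detection filter and 2 of them fell, against 12.6% lower calls among all miRNAs tested. MiR-503-5p, likewise known for restraining the cell cycle, read 25.0, 30.6 and 20.2 on control arrays against 21.7, 20.8 and 18.4 on model arrays. Its log2 fold change of -0.54 had a standard error of 0.10 (adjusted p = 0.0170, limma). MiR-450a-5p read 6.23, 8.46 and 5.51 on control arrays against 6.72, 6.14 and 5.34 on model arrays. It differed by -0.37 after scaling (adjusted p = 0.0321). In both, the unscaled signals of the groups overlapped and the scaled ones did not. For miR-542-5p the groups overlapped (log2 fold change 0.27, adjusted p = 0.188). MiR-542-3p was detected on 2 arrays, and miR-503-3p, miR-351-5p, miR-351-3p and miR-450a-3p on none.

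The relatives of the seed are shown because they hold nearly the same letters and yet pair through a different seed. Capitals mark bases 2 to 8 in miR-503-5p and, in the other 2, the letters of the family seed, which there start at base 1.
miR-503-5p, chrX:137725899-137725921, minus strand: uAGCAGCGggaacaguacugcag
miR-103-3p, chr3:138963278-138963300, plus strand: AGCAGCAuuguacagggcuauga
miR-107-3p, chr1:241750431-241750453, minus strand: AGCAGCAuuguacagggcuauca
MiR-103-3p and miR-107-3p are encoded in introns of pantothenate kinase genes. The log2 fold change was 0.05 for miR-103-3p (adjusted p = 0.680, limma) and -0.34 for miR-107-3p (adjusted p = 0.0676), and neither passed. Over the whole list of 15 relatives and cluster mates, 6 were tested, 0 were higher and 2 lower at an adjusted p under 0.05 in limma, with a median of -0.29, against 12.6% lower calls over all miRNAs. An unadjusted p under 0.05 was found for 4 of the 6 and for 37.9% of all miRNAs. With the methods' t-test, 1 of the 6 passed after adjustment. The number passing was 0 without control array 1, control array 2 or model array 2, where 2, 3 and 3 had an unadjusted p under 0.05 in limma, and 1 without model array 3. MiR-15a-5p, another member of the miR-15 family by name that was added after its values were seen, was dim, with signals of 6.29 to 10.3 in control rats and 7.93 to 13.3 in model rats. Its log2 fold change was 0.11 (adjusted p = 0.693).

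**Figure D4:**
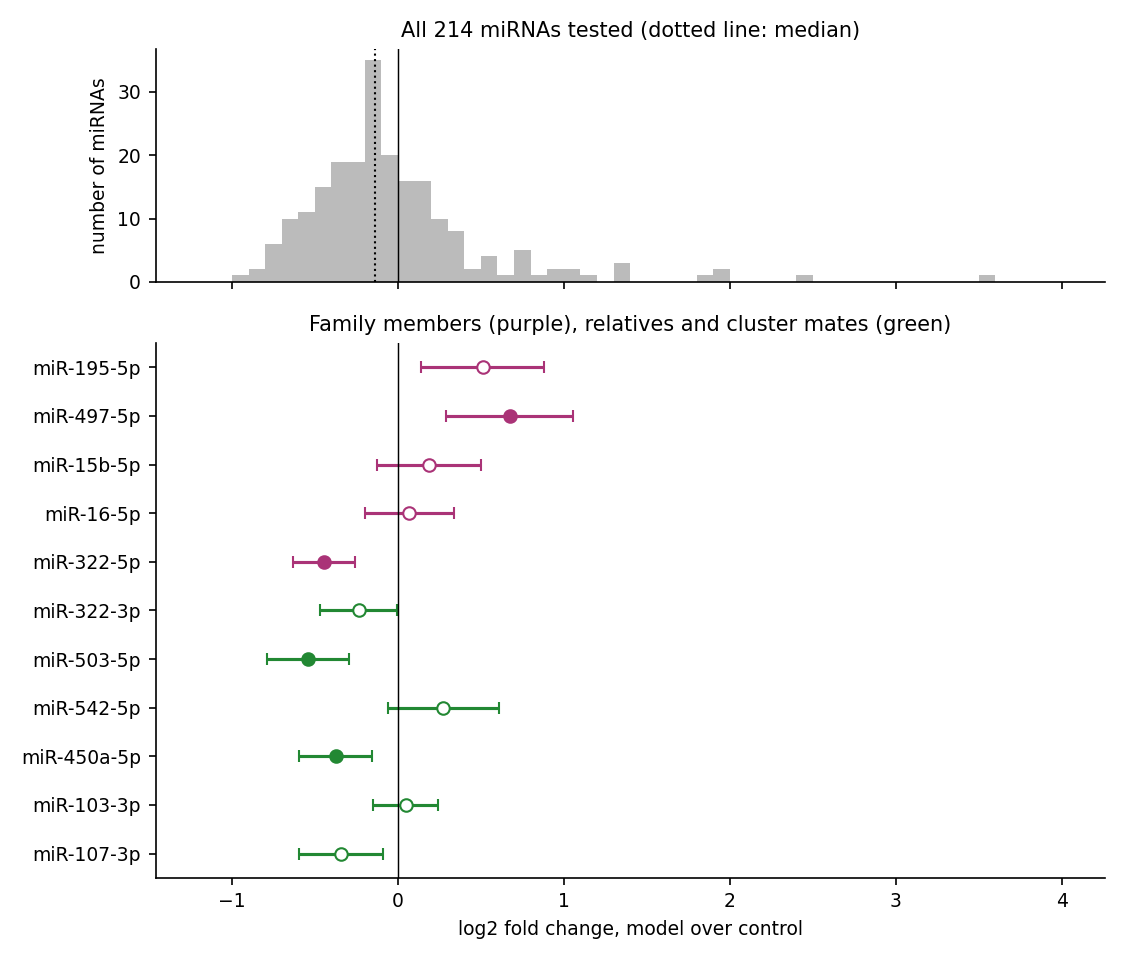
Top, number of miRNAs by log2 fold change (model over control) for the 214 miRNAs tested, with the median at -0.14 as a dotted line. Bottom, log2 fold change with its 95% confidence interval for the 5 members (purple) and the 6 tested relatives and cluster mates (green), filled where the adjusted p in limma was under 0.05. MiR-497-5p lies to the right of 0, and miR-322-5p, miR-503-5p and miR-450a-5p to the left.

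Other miRNAs that act on the cell cycle did not share one direction. Of 6 miRNAs known to restrain division, 1 fell and 5 did not pass, with a median log2 fold change of 0.05. The one that fell was miR-133a-3p (-0.68, adjusted p = 0.0297), which is also in the cardiomyocyte list, while let-7b-5p and let-7c-5p had values of 0.34 and 0.33 (adjusted p = 0.0750 and 0.0578). Of 7 measured miRNAs known to favour division, 3 rose, namely miR-199a-3p (1.40, adjusted p = 0.00455), miR-221-3p (1.07, adjusted p = 0.00355) and miR-222-3p. All 3 were already reported by the study as raised on these arrays, so the count is no independent support. MiR-222-3p was detected on the 3 model arrays only. It thus passed the filter through the group where it was higher, with its control values set at the floor, and its p is not given. The rise of miR-222-3p is therefore not to be set against the share over all miRNAs. MiR-199a-3p, which is also in the fibroblast list, is known to promote cardiomyocyte proliferation, and miR-221 and miR-222 to repress the cell cycle inhibitor p27. MiR-17-5p, miR-20a-5p, miR-19b-3p and miR-25-3p, of the miR-17-92 and related clusters, lay between -0.18 and -0.11 and did not pass. The share called in either direction over all miRNAs was 22.9%.

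Markers of some cell types moved with the groups as well. Summed scaled signals of the fibroblast list ran from 3.85 to 4.74 in control rats and from 10.2 to 14.4 in model rats. Of its 4 miRNAs, 4 rose, against 10.3% higher and 12.6% lower calls among all miRNAs tested. All 4 were already reported by the study as raised on these arrays, so the count is no independent support. The cardiomyocyte list ran from 114 to 138 in control rats and from 60.9 to 85.1 in model rats, with 3 of 5 tested miRNAs lower and miR-208b-3p detected on no array. The endothelial list had 2 of 2 lower, with sums of 8.16 to 9.17 and 5.98 to 6.66. Of the leukocyte list, 1 of 4 tested was higher, miR-155-5p (1.07, adjusted p = 0.0127, limma), and 1 lower, miR-150-5p (-0.60, adjusted p = 0.0178). MiR-223-3p (0.15) and miR-142-3p (-0.07) did not pass, and miR-142-5p was detected on no array. The sums were 2.11 to 2.39 in control rats and 1.52 to 1.85 in model rats. They were set mostly by miR-150-5p, the brightest of the list, and sums without it were not computed. Of the red blood cell list, 1 of 2 tested was lower, with sums of 1.79 to 2.10 and 1.13 to 1.43, and miR-144-3p was detected on no array. The smooth muscle list, whose 2 miRNAs did not pass, had sums of 5.04 to 6.72 and 4.74 to 5.46. The part of these cell types in the changes of the family was not tested.

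Across the 6 arrays, the miRNAs outside the family whose scaled log2 signal was most like the mean of miR-195-5p and miR-497-5p were miR-21-5p (Pearson r = 0.98), miR-100-5p (0.98) and miR-511-3p (0.98), of 193 candidates. MiR-21-5p, known from activated fibroblasts, is in the fibroblast list. Their own log2 fold changes were 1.10, 0.19 and 0.83, and that of miR-100-5p did not pass (adjusted p = 0.153). Those most like the mean of the other 3 members were miR-142-3p (0.89), miR-29a-3p (0.88) and miR-25-3p (0.87), with log2 fold changes between -0.13 and -0.07. These correlations are descriptions over 6 arrays in 2 groups that share their scaling.

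In the log2 values that the authors normalized by a method not given in the sources used here, miR-195-5p stood at 9.09, 9.09 and 8.82 in control rats and at 9.09, 9.50 and 9.09 in model rats. Here the groups touched, since 4 of the 6 arrays carried the same value. For the 198 miRNAs detected on all arrays, 94.9% to 96.5% of the values of a column recurred in another column. On this scale miR-195-5p differed by 0.23 (adjusted p = 0.348, limma), against 0.51 from the scanner signals. MiR-497-5p remained higher on every model array, at 8.76, 8.76 and 8.51 against 8.14, 8.07 and 7.86, and miR-322-5p lower on every model array, at 7.86, 7.79 and 7.72 against 8.07, 8.14 and 8.07.

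**Figure D5:**
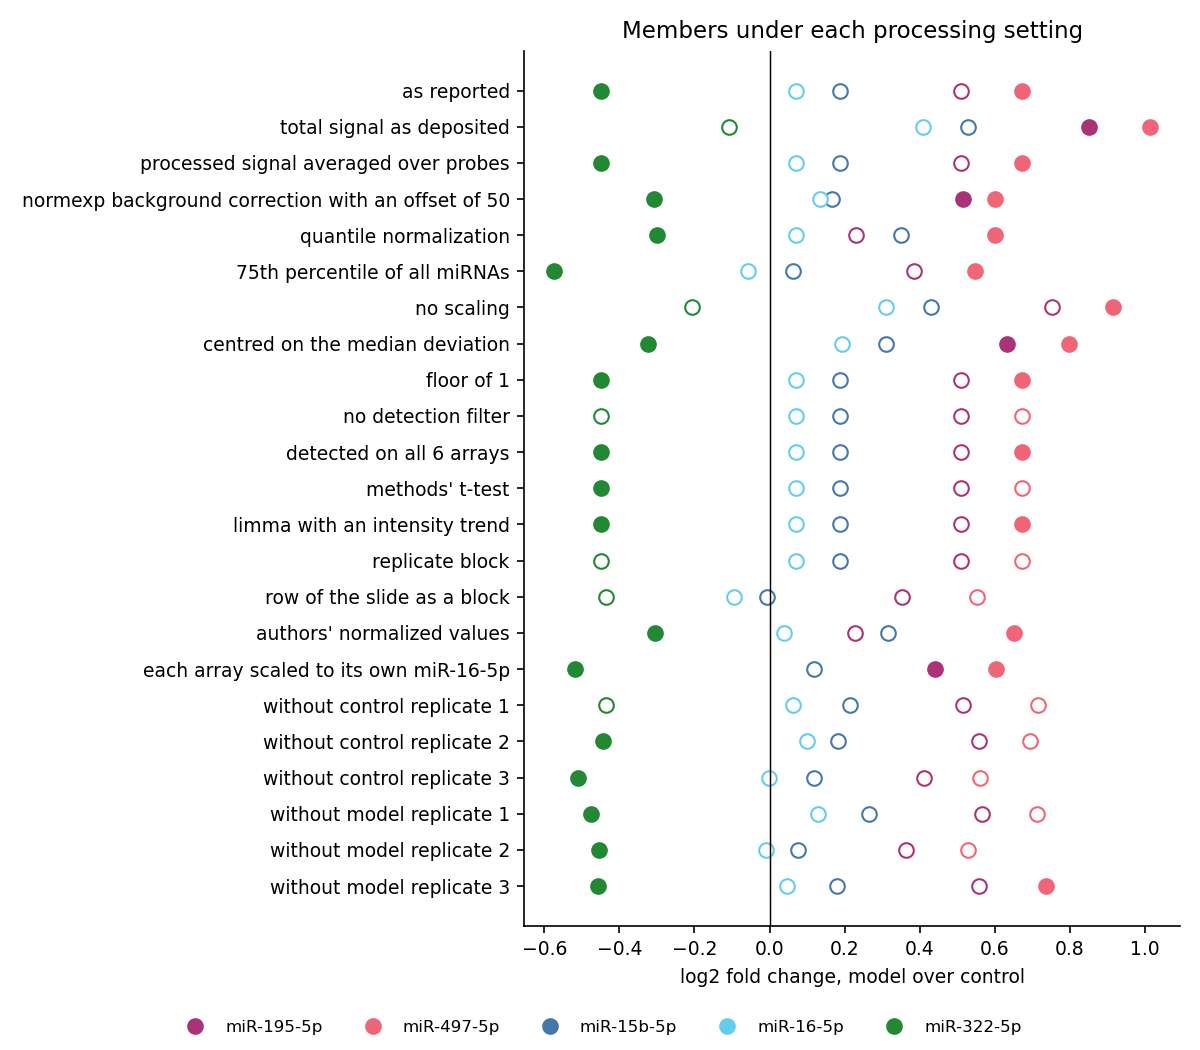
Log2 fold change (model over control) of the 5 members, coloured by member, as reported and under each other processing setting. Filled points have an adjusted p under 0.05 and open points do not. MiR-497-5p and miR-195-5p lie above 0 and miR-322-5p below 0 in each row, while miR-16-5p lies below 0 in 4 and miR-15b-5p in 1.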

How the data were processed

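MiRNA profiles of 3 control and 3 model samples were measured on 6 single-colour Agilent arrays, grouped by the sample labels. The authors deposited Feature Extraction 10.7.1.1 files, whose intensity values had been background-subtracted by that software (named in the submitters' processing notes) but not yet brought to one scale, and a table of normalized log2 values whose method is not given in the sources used here. Deposited totals of some miRNAs held the signal of another, so signals were rebuilt as the sum of probes over 3 times their error. For the members, 30 of 30 totals equalled this sum within a relative tolerance of 0.0001. Each array was scaled to the 75th percentile over the 198 miRNAs present on all 6, values under -6.50 in log2 were raised to it (the highest of the arrays' detection limits), and 214 miRNAs detected throughout either group were tested. The test was limma (3.58.1, R 4.3.3) without covariates, with Benjamini-Hochberg adjustment at 0.05. In simulated data with 40 of 214 miRNAs changed 3-fold, 5.2% of the limma calls were false with known scaling and 5.3% with median centring. With the 75th percentile, as used here, 30.1% were false, and the cause of this excess was not tested. Single ratios were compared with exact permutation tests. Sequences and gene order came from the RefSeq tables of GRCr8, while the array files name no build. Other steps used matplotlib 3.10.9, numpy 2.4.6 and pandas 2.3.3 under Python 3.11.15.

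The members, lists, tests and settings were chosen with earlier results of these data known. Named miRNAs are the members, the lists, the 3 miRNAs most correlated with the pair and the 3 most correlated with the other members. Of the listed miRNAs, miR-590-3p was not on the array. Alternatives were the total as deposited, the averaged processed signal, quantile normalization, normexp (offset 50), no scaling, scaling to the percentile of all miRNAs, centring on the median deviation, a floor of 1, a stricter filter and none, an intensity trend, the methods' t-test, blocks for replicate and slide row, the authors' values, scaling to miR-16-5p and leaving out each array. A block for slide or scan time was not run, because there was 1 of each. The number of arrays and the signal over background limit the precision. The other experiments of the study were not analysed here.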

Additional observations from a re-analysis of the deposited data

How the results depend on the processing

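The log2 fold changes of miR-195-5p, miR-497-5p and miR-322-5p kept their sign in all 22 alternatives, and miR-497-5p stayed past the threshold in 13, miR-322-5p in 16. The pair minus the other 3 stayed positive in 15 of 15. Settings that alter only the test or the filter leave a log2 fold change as it is. Those that alter one factor per array leave the pair difference as it is. Calls, signs and counts that changed are listed by setting, and the cause was not tested except where stated.

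With the totals as deposited, miR-195-5p passed at 0.85 and miR-322-5p did not at -0.11, 35 miRNAs were higher and 1 lower (14 unadjusted), and 0 relatives passed (2 unadjusted). As the members' own totals were unchanged there, the shift of the members came through the scaling. Normexp brought miR-195-5p past the threshold at 0.52 and left 1 relative. Quantile normalization lowered miR-195-5p to 0.23 and the pair difference to 0.37, with 16 miRNAs lower. The 75th percentile of all miRNAs turned miR-16-5p to -0.056 and gave 47 lower. Without scaling, miR-322-5p was at -0.21, 1 member and 0 relatives passed in limma (2 and 1 unadjusted), and 0 miRNAs were lower (4 unadjusted). Centring on the median deviation brought miR-195-5p past the threshold at 0.63, with 16 lower and 1 relative. Without a detection filter, which tests 758 miRNAs, miR-497-5p (0.67) and miR-322-5p (-0.45) missed it, 0 members passed in limma (3 unadjusted), 6 miRNAs were higher and 3 lower, and 0 relatives (4 unadjusted) and 1 cell cycle miRNA passed. The methods' t-test left miR-497-5p (0.67) above the threshold, with 1 member, 1 relative and 11 lower, and 3 members had an unadjusted p under 0.05, of which 0 were over 2-fold.

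The labels do not say whether equal replicate numbers pair the samples. Same-numbered arrays had correlations of -0.26, 0.03 and 0.24 in their deviations from the group means, which are too few to decide it. With the replicate block, miR-497-5p (0.67) and miR-322-5p (-0.45) missed the threshold. Then 0 members (3 unadjusted) and 0 relatives (2 unadjusted) passed, and 12 miRNAs were higher and 4 lower. Blocking on slide row, which leaves model array 1 against the control arrays, put miR-195-5p at 0.35, miR-497-5p at 0.55, miR-15b-5p at -0.0079, miR-16-5p at -0.10 and miR-322-5p at -0.43, 0 members (1 unadjusted) and 0 relatives (2 unadjusted) passed then, and 11 miRNAs were higher. The authors' normalized values gave a pair difference of 0.42, 14 miRNAs lower and 1 relative. Scaling to miR-16-5p, chosen after the data were seen, brought miR-195-5p past the threshold at 0.44.

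Leaving out 1 array at a time, log2 fold changes ran from 0.36 to 0.57 for miR-195-5p, 0.53 to 0.74 for miR-497-5p, 0.08 to 0.26 for miR-15b-5p, -0.010 to 0.13 for miR-16-5p and -0.51 to -0.44 for miR-322-5p, and the pair difference from 0.58 to 0.72. Between 0 and 2 members, 0 and 2 relatives and 3 and 5 cell cycle miRNAs passed, and 12 to 22 miRNAs were higher and 2 to 21 lower. The members passing were 0 without control array 1 (3 unadjusted), 2 without model array 3 and 1 without each of the others.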
